A study of Homo sapiens with 12 samples.

Results

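The genes described here are 10 transporters that carry amino acids across the cell membrane, chosen by name from 20263 genes in a table of transcript levels of U87 cells, a human glioblastoma line. They are SLC7A5, SLC3A2, SLC7A11, SLC7A1, SLC1A5, SLC1A3, SLC1A4, SLC38A1, SLC38A2 and SLC6A9. No measured value entered the choice of names, but the results of the series were known when the set was drawn up. All 10 were found in the table, and 9 were tested, having 3 or more libraries with a TPM of 1 or higher. SLC7A11 had fewer and was not tested.

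Messenger RNA had been sequenced from cells kept at 1% O2, for 72 h according to the sample record, in 4 groups of 3 libraries. Vector cells carried the empty vector. HIF1α-ko cells were a knockout of HIF1α, HIF2α-ko cells a knockout of HIF2α, and HIF1α/2α-ko cells, the double knockout, of both. All 4 groups were hypoxic, so each comparison is between genotypes under low oxygen and no library gives a level at normal oxygen. Whether a knockout line was 1 clone or a pool, and whether libraries of a group came from separate cultures, is not given in the sources used here, so every p-value measures the spread between these libraries, which may be technical. Levels are in TPM, a transcript measure scaled for gene length and library total that keeps no read depth, so the depth behind a value is unknown.

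The transcripts of the targeted genes were present in every library. HIF1A had a TPM of 112, 109.99 and 151 in vector and of 57.3, 49.5 and 38.6 in HIF1α-ko, whereas the HIF1α/2α-ko libraries had 89.2, 67.8 and 69.4. The HIF2α-ko libraries, whose HIF1A was not targeted, had 108, 76.1 and 76.6 and overlapped the double knockout, with a log2 difference of -0.19 between these groups (adjusted p = 0.453, limma), so HIF1A transcript does not check the HIF1α label of the double knockout. EPAS1, the gene of HIF2α, had 286, 333 and 346 in vector, 87.6, 118 and 116 after HIF2α knockout, and 101, 119.5 and 129.9 in the double knockout. For each factor, both groups that should lack it lay below vector in every library, and transcript level does not show whether protein was made. Of the glial line markers, VIM, CD44 and FN1 exceeded 100 TPM in every library, whereas GFAP, SOX2 and S100B stayed below 1 TPM in every library and NES was at 2.64 to 6.17 TPM. From vector to HIF1α/2α-ko the mean of VIM went from 13003 to 6770 TPM and that of FN1 from 461 to 128, and the summed list ranged from 12834 to 16147 TPM in vector and from 6358 to 9944 in HIF1α/2α-ko. OLIG2 was at 0.884 to 19.2 TPM, with its highest value in HIF1α/2α-ko. Markers of epithelium and oligodendrocytes were each below 1 TPM throughout, and the summed markers of endothelium and neurons reached 7.08 and 4.70 TPM at most. Of 5 immune markers 4 were below 1 TPM and CD68, which encodes a lysosomal protein, was at 587 to 1633 TPM, with its lowest values in HIF1α/2α-ko. Their part in the results was not tested. In bulk RNA, a change in every cell and a change in the share of cells that express a gene cannot be told apart.

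Amino acid transporters set which amino acids a cell can take up, release or exchange. SLC7A5 (LAT1) exchanges large neutral amino acids such as leucine and needs SLC3A2, the heavy chain of CD98, to reach the membrane. Their genes lie at chr16:87830023-87869488 and chr11:62856102-62888875, in GENCODE 29 coordinates on GRCh38 as for all positions of whole genes here. The same heavy chain pairs with SLC7A11 (xCT), which imports cystine in exchange for glutamate and so supplies glutathione synthesis (chr4:138164097-138242349). SLC7A1 (CAT-1, chr13:29509410-29595688) carries the cationic amino acids arginine, lysine and ornithine. SLC1A5 (ASCT2, chr19:46774883-46788594) and SLC1A4 (ASCT1, chr2:64988477-65023865) exchange neutral amino acids, glutamine among those of the former and serine among those of the latter. SLC1A3 (EAAT1, or GLAST, chr5:36606355-36688334) is the sodium-driven glutamate transporter of astrocytes. SLC38A1 and SLC38A2 (SNAT1 and SNAT2), at chr12:46183063-46270017 and chr12:46358189-46372867, take up glutamine and other small neutral amino acids with sodium, and SLC6A9 (GlyT1, chr1:43991500-44031467) takes up glycine. All 10 genes are protein-coding. Several of these genes are known targets of ATF4, the transcription factor that cells translate when amino acids run short, and HIF1α and HIF2α are the oxygen-regulated factors that bind hypoxia response elements.

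Promoter sequences are shown so that members that rose in the double knockout can be set beside the short motifs of these factors. Windows of 300 bases, 250 before to 50 after a transcription start, were available from RefSeq (GRCh38.p14) for 9 members, 17 windows in all. SLC7A11 is not among them. The amino acid response motif, TGATGNAA on either strand, was found in 6 of the 17 windows, 1 each of SLC3A2, SLC7A1, SLC1A5, SLC1A3, SLC1A4 and SLC38A1, and in 3.62% of 35116 windows of all genes. The window of SLC6A9, which rose, held no match, and SLC1A3, which fell, had one. In the following windows, written 5′ to 3′ on the strand of the gene, capitals mark this motif or its reverse complement. They lie at chr2:64989149-64989448 (plus strand), chr11:62881449-62881748 (plus strand) and chr13:29595639-29595938 (minus strand).
SLC1A4: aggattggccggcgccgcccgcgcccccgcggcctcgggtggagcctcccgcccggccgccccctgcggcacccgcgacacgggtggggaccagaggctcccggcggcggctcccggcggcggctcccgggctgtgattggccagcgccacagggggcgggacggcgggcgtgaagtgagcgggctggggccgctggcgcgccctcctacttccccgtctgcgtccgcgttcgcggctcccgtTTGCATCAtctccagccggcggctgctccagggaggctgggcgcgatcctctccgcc
SLC3A2: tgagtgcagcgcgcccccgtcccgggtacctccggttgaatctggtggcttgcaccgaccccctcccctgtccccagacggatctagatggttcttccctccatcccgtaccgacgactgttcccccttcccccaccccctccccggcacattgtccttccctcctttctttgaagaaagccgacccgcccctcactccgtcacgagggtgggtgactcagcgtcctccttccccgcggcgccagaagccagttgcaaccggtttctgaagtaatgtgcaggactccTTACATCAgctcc
SLC7A1: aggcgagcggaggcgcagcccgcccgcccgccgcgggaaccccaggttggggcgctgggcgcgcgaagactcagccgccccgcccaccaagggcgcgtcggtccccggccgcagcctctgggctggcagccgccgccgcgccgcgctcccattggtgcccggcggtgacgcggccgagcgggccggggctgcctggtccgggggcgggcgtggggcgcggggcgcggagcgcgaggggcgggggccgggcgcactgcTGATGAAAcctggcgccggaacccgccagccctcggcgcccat

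The core of the hypoxia response element was searched as ACGTG and as GCGTG, on either strand. ACGTG lay in 5 of the 17 member windows (5 genes) and in 21.4% of all windows, and GCGTG in 10 member windows (7 genes) and in 36.5% of all windows. An antioxidant response motif, TGACNNNGC on either strand, lay in 5 member windows (5 genes) and in 13.3% of all windows. The window of SLC7A5 at chr16:87869458-87869757 (minus strand) holds both hypoxia cores and is shown. It is the one such window in a gene whose transcript passed the test in no comparison when all 12 libraries were fitted. Capitals mark both cores, which read CACGT or CACGC on the reverse strand, and its palindrome CACGTG holds ACGTG on each strand. A match describes letters in a window and is no evidence of binding.
SLC7A5: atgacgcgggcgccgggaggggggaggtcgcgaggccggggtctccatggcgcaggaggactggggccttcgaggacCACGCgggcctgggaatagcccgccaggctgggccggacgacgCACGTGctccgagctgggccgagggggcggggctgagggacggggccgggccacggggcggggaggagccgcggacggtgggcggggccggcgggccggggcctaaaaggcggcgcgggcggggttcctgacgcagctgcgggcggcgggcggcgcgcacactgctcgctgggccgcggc

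SLC1A5 was the most abundant member, with a mean of 317 TPM over the 12 libraries, followed by SLC3A2 with 127, SLC38A2 with 43.5, SLC7A1 with 40.1, SLC7A5 with 29.5 and SLC38A1 with 21.8. SLC1A4 averaged 10.8 TPM, SLC6A9 6.84, SLC1A3 6.64 and SLC7A11 0.470. Summed over the 10 members, the mean was 402 ± 20.7 TPM (SD, n = 3) in vector cells, 746 ± 68.8 after HIF1α knockout, 483 ± 36.8 after HIF2α knockout and 782 ± 94.0 in the double knockout. SLC1A5 alone made up 43.1% of this sum in vector and 50.1% to 58.7% in the knockout groups, by the group means.

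**Figure D1:**
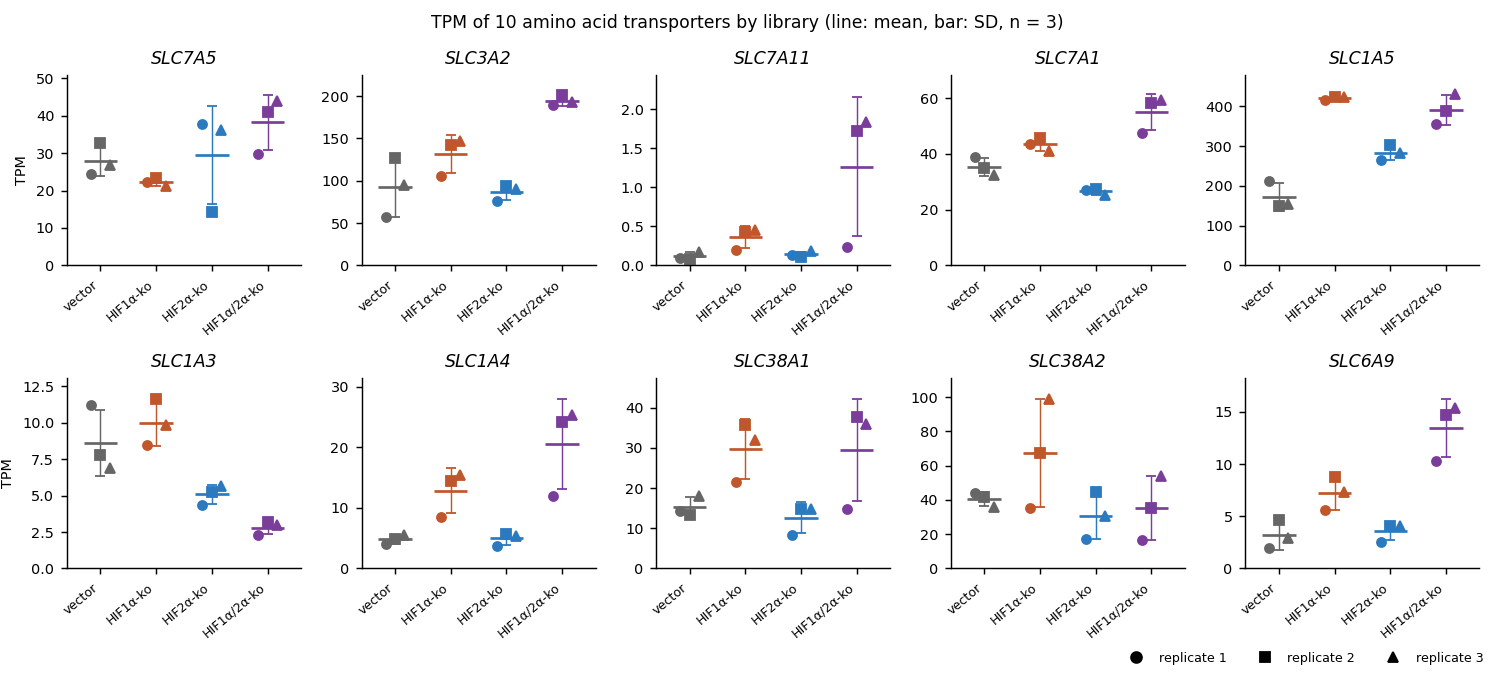
TPM (linear axis from 0) of each of the 10 members in each library of the 4 groups. Points are libraries with their shape giving the replicate number, lines are group means and bars are the SD (n = 3). SLC1A5 sits at 416 to 424 TPM in HIF1α-ko against 150.3 to 213.5 in vector, SLC1A3 is lowest in HIF1α/2α-ko at 2.32 to 3.16, and the circles of replicate 1 lie lowest in HIF1α/2α-ko for all 10 members.

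The comparisons with vector ask what each knockout changed. In HIF1α/2α-ko, 5 of the 9 tested members rose and 1 fell, which is 6 of 9 called where 46.7% of all 11731 tested genes were called (31.8% higher and 14.8% lower). Their median log2 fold change was 0.81, against 0.21 over all tested genes. In HIF1α-ko 3 members rose and 0 fell, where 26.1% of all tested genes were called (17.3% higher and 8.77% lower), and the medians were 0.61 and 0.18. In HIF2α-ko 1 member rose and 0 fell, where 11.0% of all tested genes were called (5.07% higher and 5.89% lower), and both medians were -0.04. These 3 comparisons share the vector libraries. Fold changes are on the log2(TPM + 1) scale, which understates the change of low genes, and adjusted p-values are from limma with Benjamini-Hochberg adjustment over all tested genes. With the libraries rescaled by median ratios, the medians over all tested genes became 0.01 for HIF1α-ko and -0.00 for both other groups, and the calls split into 2760 higher and 2698 lower genes in HIF1α/2α-ko and 1285 and 1545 in HIF1α-ko. The members kept 5 higher and 1 lower in HIF1α/2α-ko and 3 higher in HIF1α-ko under that scaling.

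**Figure D2:**
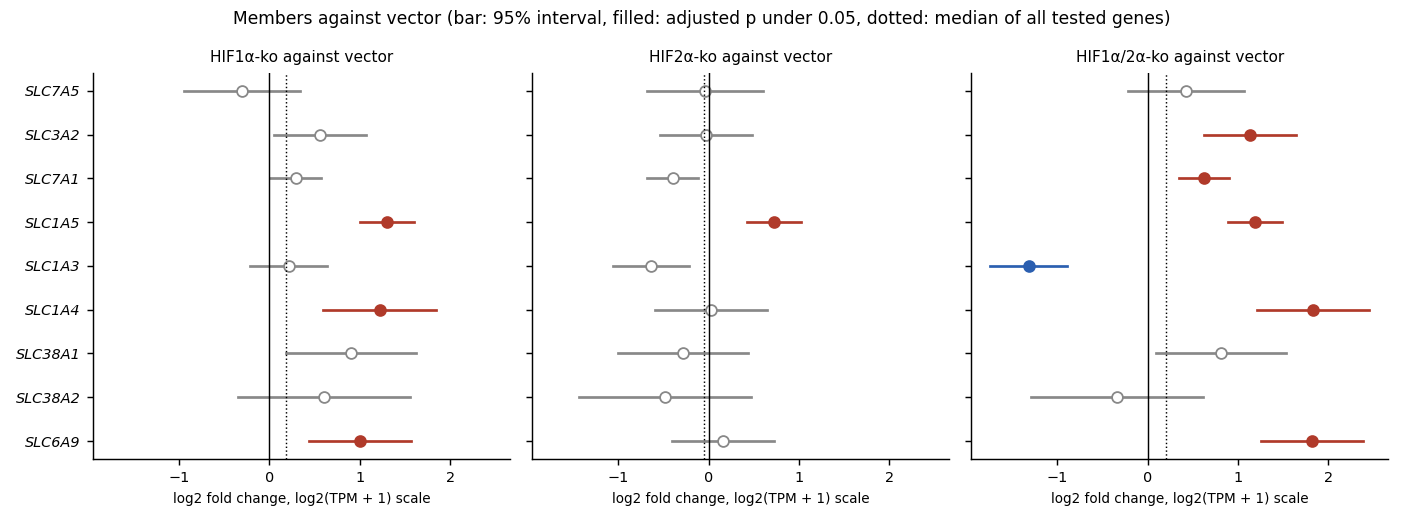
Difference of each tested member from vector in each single knockout and in HIF1α/2α-ko, as log2 fold change on the log2(TPM + 1) scale. Points are limma estimates with 95% intervals, filled where the adjusted p is under 0.05 (red higher, blue lower), and the dotted line is the median of all tested genes. SLC1A4 and SLC6A9 stand farthest to the right in HIF1α/2α-ko, at 1.83 and 1.82, and SLC1A3 alone is filled on the lower side, at -1.32.

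Of the light and heavy chains, the heavy chain SLC3A2 rose in the double knockout and its light chain SLC7A5 was not called. SLC3A2 had a TPM of 56.7, 127 and 94.8 in vector cells, 106, 143 and 147 after HIF1α knockout, 76.1, 94.3 and 89.95 after HIF2α knockout, and 190.2, 202 and 193 in the double knockout. All HIF1α/2α-ko libraries lay above all others, while the vector libraries spread widely and overlapped both single knockouts. SLC3A2 rose by a log2 of 1.14 ± 0.23 (SE, n = 3 per group, adjusted p = 0.0018, limma) in HIF1α/2α-ko, and its difference was 0.56 (adjusted p = 0.0940) without HIF1α alone and -0.03 (adjusted p = 0.960) without HIF2α alone. The value without HIF1α alone ran from 0.25 to 0.82 with 1 library left out. It was called with replicates 2 and 3 only (0.40, adjusted p = 0.0352), with the replicate block (0.0321) and when vector replicate 2 was left out (0.82, 0.0251). That block covers all 4 groups, though vector libraries shared little deviation with same-numbered knockout libraries (r = -0.0265 to 0.163).

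SLC7A5 had a TPM of 24.4, 32.7 and 26.9 in vector cells, 22.4, 23.3 and 21.2 after HIF1α knockout, 37.9, 14.4 and 36.2 after HIF2α knockout, and 29.8, 41.0 and 43.9 in the double knockout. The HIF1α-ko libraries were all below vector, and in HIF2α-ko replicate 2 lay below every other library while the other two lay above vector. The differences from vector were -0.31 (95% interval -0.95 to 0.33) after HIF1α knockout, -0.04 (-0.67 to 0.60) after HIF2α knockout and 0.43 (-0.21 to 1.07) in the double knockout on the log2 scale, with adjusted p of 0.459, 0.959 and 0.254 in limma. The SLC3A2 level divided by that of SLC7A5 was 2.32 to 3.89 in vector cells, 4.75 to 6.92 after HIF1α knockout, 2.01 to 6.57 after HIF2α knockout and 4.40 to 6.39 in the double knockout, so both groups without HIF1α lay above vector in every library, and HIF2α-ko overlapped all.

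SLC7A11, the cystine light chain, was close to the floor of the table. It had a TPM of 0.0870, 0.0836 and 0.173 in vector cells, 0.200, 0.420 and 0.456 after HIF1α knockout, 0.136, 0.109 and 0.177 after HIF2α knockout, and 0.236, 1.72 and 1.84 in the double knockout. Its highest values were replicates 2 and 3 of HIF1α/2α-ko, whereas replicate 1 of that group lay within the HIF1α-ko range. With no filter on low values, the difference from vector in HIF1α/2α-ko was 0.93 (95% interval 0.37 to 1.49, adjusted p = 0.0167, limma). The pseudocount of 1 is as large as most of these values, so this difference is small by construction.

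SLC7A1, the arginine and lysine carrier, lay above vector without HIF1α and below it without HIF2α, though neither difference passed the test. Its TPM was 38.8, 34.9 and 32.3 in vector cells, 43.5, 45.7 and 40.9 after HIF1α knockout, 27.0, 27.4 and 25.1 after HIF2α knockout, and 47.5, 58.3 and 59.2 in the double knockout. No group overlapped another. SLC7A1 rose by a log2 of 0.62 ± 0.13 (SE, adjusted p = 0.00186, limma) in HIF1α/2α-ko, and the single knockouts gave 0.29 (adjusted p = 0.112) for HIF1α and -0.40 (adjusted p = 0.0684) for HIF2α. With replicates 2 and 3 only, both passed (0.0156 and 0.0268). The first also passed without vector replicate 1 (0.0466). The second also passed without HIF1α/2α-ko replicate 1 (0.0414) and with the replicate block over all 4 groups (0.0482). No other setting called them. In order of level, HIF1α/2α-ko and HIF1α-ko, HIF1α-ko and vector, and vector and HIF2α-ko are neighbours, and none of these pairs passed the test in the fit without a replicate block.

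Of the neutral exchangers, SLC1A5 rose in all 3 knockout groups and SLC1A4 rose in both groups without HIF1α. SLC1A5, the glutamine exchanger, had a TPM of 213.5, 150.3 and 155 in vector cells, 416, 423 and 424 after HIF1α knockout, 264.5, 302 and 283 after HIF2α knockout, and 355, 388 and 430.2 in the double knockout. Every knockout library lay above every vector library. Its log2 rise was 1.30 ± 0.14 (SE, adjusted p = 0.000162, limma) after HIF1α knockout, 0.73 (adjusted p = 0.00732) after HIF2α knockout and 1.19 (adjusted p = 3.48e-05) in the double knockout, and the mean TPM of the single knockouts was 2.44-fold and 1.64-fold that of vector.

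SLC1A4, the serine exchanger, had a TPM of 3.998, 4.92 and 5.49 in vector cells, 8.54, 14.5 and 15.4 after HIF1α knockout, 3.69, 5.74 and 5.41 after HIF2α knockout, and 12.01, 24.2 and 25.4 in the double knockout. Vector and HIF2α-ko overlapped, and all libraries of the other groups lay above both. SLC1A4 rose by a log2 of 1.22 ± 0.29 (SE, adjusted p = 0.00982, limma) after HIF1α knockout and of 1.83 (adjusted p = 0.000275) in the double knockout, where its mean TPM was 4.28-fold that of vector, and its difference in HIF2α-ko was 0.03 (95% interval -0.60 to 0.65, adjusted p = 0.969).

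SLC1A3, the astrocyte glutamate transporter, was the 1 member called lower. It had a TPM of 11.2, 7.78 and 6.88 in vector cells, 8.49, 11.7 and 9.89 after HIF1α knockout, 4.39, 5.23 and 5.68 after HIF2α knockout, and 2.32, 3.16 and 2.95 in the double knockout. HIF1α-ko overlapped vector, and both groups without HIF2α lay below vector, the double knockout lowest. SLC1A3 fell by 1.32 on the log2 scale (SE 0.20, adjusted p = 0.000185, limma) in HIF1α/2α-ko, to 0.326 of the vector mean. Its difference in HIF2α-ko was -0.64 (95% interval -1.06 to -0.21, adjusted p = 0.0550). That passed the threshold under median ratio scaling (adjusted p = 0.0318), quantile normalization (0.0246), no trend (0.0482) and a mean TPM of at least 5 (0.0491). The same difference passed with the replicate block over all 4 groups (0.0496) and without HIF1α/2α-ko replicate 1 (0.0441). In HIF1α-ko the difference was 0.21 (adjusted p = 0.441). It ran from 0.08 to 0.40 with 1 library left out and was 0.50 (adjusted p = 0.0118) with replicates 2 and 3 only.

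The sodium-coupled glutamine carriers did not pass the test against vector. SLC38A1 had a TPM of 14.3, 13.4 and 18.0 in vector cells, 21.5, 35.8 and 31.9 after HIF1α knockout, 8.32, 14.8 and 14.8 after HIF2α knockout, and 14.9, 37.7 and 36.0 in the double knockout. HIF1α-ko lay above vector in every library, and in HIF1α/2α-ko replicate 1 lay within the vector range and the other two libraries at more than 30 TPM. The differences were 0.90 (95% interval 0.18 to 1.62, adjusted p = 0.0628, limma) after HIF1α knockout and 0.81 (0.10 to 1.53, adjusted p = 0.0609) in the double knockout. Without replicate 1 of every group, a fit chosen after the data were seen, both passed, at 1.07 (adjusted p = 0.000706) and 1.20 (0.000246). Both also passed with the replicate block over all 4 groups (0.0116 and 0.00953) and without HIF1α/2α-ko replicate 1 (0.0160 and 0.00271). The first passed with only the groups compared (0.0277) or without HIF1α-ko replicate 1 (0.0431), and the second without HIF2α-ko replicate 1 (0.0497). No other setting called them, median ratio scaling giving 0.0757 and 0.102.

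SLC38A2 had the widest spread between libraries of the 9 tested members, with an SE of 0.44 for each difference from vector. Its TPM was 43.9, 41.9 and 35.8 in vector cells, 35.5, 67.5 and 98.9 after HIF1α knockout, 17.3, 44.4 and 30.4 after HIF2α knockout, and 16.5, 35.4 and 54.1 in the double knockout. Every knockout group overlapped vector, and replicate 1 was the lowest library of each knockout group. The 95% intervals of the log2 difference from vector were -0.35 to 1.56 after HIF1α knockout, -1.43 to 0.47 after HIF2α knockout and -1.29 to 0.62 in the double knockout. After HIF1α knockout the difference was 0.61 (adjusted p = 0.322, limma), 1.00 (0.113) without HIF1α-ko replicate 1, and 1.06 with replicates 2 and 3 only, where it passed the threshold (0.0135).

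SLC6A9, the glycine transporter, had a TPM of 1.94, 4.67 and 2.94 in vector cells, 5.56, 8.77 and 7.28 after HIF1α knockout, 2.56, 4.02 and 4.09 after HIF2α knockout, and 10.3, 14.7 and 15.3 in the double knockout. The double knockout lay above all other libraries, HIF1α-ko above vector and HIF2α-ko within vector. SLC6A9 rose by a log2 of 1.82 ± 0.26 (SE, adjusted p = 0.000145, limma) in HIF1α/2α-ko, with a mean TPM 4.22-fold that of vector, and of 1.00 (adjusted p = 0.0154) in HIF1α-ko. The latter call was lost without vector replicate 3 (adjusted p = 0.0514), HIF1α-ko replicate 2 (0.0668) or HIF1α-ko replicate 3 (0.0538). The difference in HIF2α-ko was 0.16 (adjusted p = 0.754).

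In the knockout groups, replicate 1 tended to hold the lowest level. It was the lowest of its group for 8 of 10 members after HIF1α knockout, for 7 after HIF2α knockout and for 10 in the double knockout, and for 4 in vector. The same library was the lowest for 54.4%, 57.0%, 62.9% and 36.3% of all tested genes in these groups. With replicates 2 and 3 only, a fit chosen after the data were seen, 8 members differed from vector after HIF1α knockout (55.1% of all tested genes called), 2 after HIF2α knockout (36.5%) and 7 in the double knockout (64.4%). The part of replicate 1 in these differences was not tested further.

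The comparisons between knockouts ask whether the double knockout differed from each single one, and the single ones from each other. Against HIF2α-ko, 7 of 9 tested members were called in HIF1α/2α-ko, 6 higher and 1 lower, where 46.4% of all tested genes were called (33.5% higher and 12.9% lower). Against HIF1α-ko, 2 members were called, 1 higher and 1 lower, where 28.3% of all tested genes were called (17.7% higher and 10.6% lower). Between the single knockouts, 6 members were higher in HIF1α-ko and 0 lower, where 25.1% of all tested genes were called (17.8% higher and 7.37% lower). Across the 3 knockout groups, same-numbered libraries deviated from their group means together, which by itself does not show that the numbers pair libraries. With the number as a block on these groups, the counts became 7 (62.6% of all tested genes), 6 (48.5%) and 8 (50.5%). With replicates 2 and 3 only, without a block, they were 7 (60.7%), 6 (45.0%) and 8 (47.1%).

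**Figure D3:**
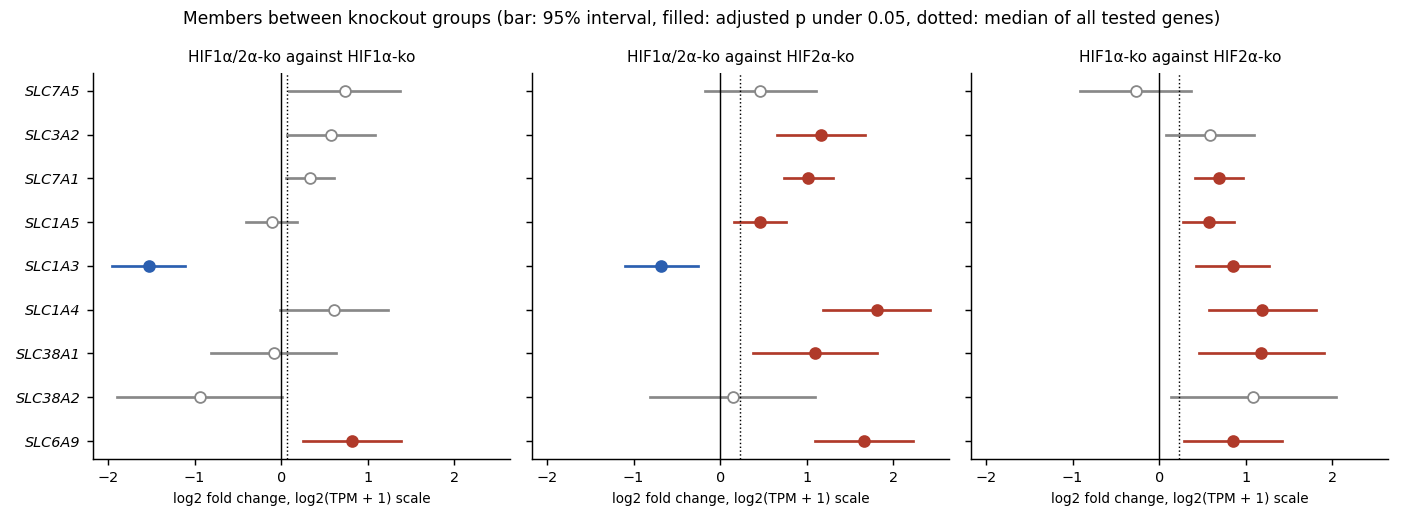
Difference of each tested member between knockout groups, as log2 fold change on the log2(TPM + 1) scale, in the fit without a replicate block. Points are limma estimates with 95% intervals, filled where the adjusted p is under 0.05 (red higher, blue lower), and the dotted line is the median of all tested genes. SLC1A3 is lower in HIF1α/2α-ko than in either single knockout, by -1.53 and -0.68, and 6 members are higher in HIF1α-ko than in HIF2α-ko.

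Of the 7 members called between HIF1α/2α-ko and HIF2α-ko, SLC1A4 was higher by a log2 of 1.81 (adjusted p = 0.000314, limma), SLC6A9 by 1.66 (adjusted p = 0.000284), SLC3A2 by 1.16 (adjusted p = 0.00156) and SLC7A1 by 1.02 (adjusted p = 6.37e-05). SLC38A1 was higher by 1.09 (adjusted p = 0.0169), a call lost without HIF2α-ko replicate 1 (0.0763), HIF1α/2α-ko replicate 2 (0.0765) or HIF1α/2α-ko replicate 3 (0.0737). SLC1A5 was higher by 0.46 (adjusted p = 0.0155), a call lost under median ratio scaling (0.349) and without HIF2α-ko replicate 1 (0.0565) or HIF1α/2α-ko replicate 3 (0.0711). SLC1A3 was lower by a log2 of -0.68 (adjusted p = 0.0129), a call lost without HIF2α-ko replicate 3 (0.0511).

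Between HIF1α/2α-ko and HIF1α-ko, SLC1A3 was lower by a log2 of -1.53 ± 0.20 (SE, adjusted p = 0.000191, limma), 0.281 of the HIF1α-ko mean TPM. SLC6A9 was higher by 0.81 (adjusted p = 0.0336), which did not hold without HIF1α-ko replicate 1 (0.118) or 3 (0.0773), without HIF1α/2α-ko replicate 2 (0.103) or 3 (0.11), with a pseudocount of 0.1 (0.0521), with no filter (0.0611) or under quantile normalization (0.050). SLC1A5, whose difference was -0.11 (95% interval -0.41 to 0.19), overlapped between these groups. SLC7A5 lay higher in every HIF1α/2α-ko library, by 0.73 (95% interval 0.09 to 1.37), without passing the test (adjusted p = 0.0815). It was called with only the groups compared (0.0161) and without HIF2α-ko replicate 2 (0.00930), and in no other setting. With the block on the knockout groups only, SLC3A2 at 0.57 (adjusted p = 0.00175, from 0.0849 without it), SLC7A1 at 0.33 (0.0264, from 0.0725) and SLC1A4 at 0.61 (0.00511, from 0.130) were also higher. SLC38A2 at -0.94 (0.00750, from 0.129) was also lower with that block.

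Between the single knockouts, the members higher in HIF1α-ko were SLC1A4 at a log2 of 1.19 (adjusted p = 0.0109, limma), SLC38A1 at 1.18 (0.0224), SLC1A3 at 0.85 (0.00878), SLC6A9 at 0.85 (0.0330), SLC7A1 at 0.69 (0.00298) and SLC1A5 at 0.57 (0.0107). SLC7A1, SLC1A3 and SLC1A5 stayed past the threshold with any 1 library left out. The call of SLC1A5 was lost under median ratio scaling (0.105). That of SLC6A9 was lost under median ratio scaling (0.0742), quantile normalization (0.0925) and no filter (0.0575). Calls were lost without HIF1α-ko replicate 2 for SLC1A4 (0.0517), SLC38A1 (0.0940) and SLC6A9 (0.131), and without HIF1α-ko replicate 3 for the same genes (0.0530, 0.0755 and 0.0931). Without HIF2α-ko replicate 1 those of SLC38A1 (0.0946) and SLC6A9 (0.126) were lost, and that of SLC6A9 also without HIF2α-ko replicate 2 (0.0564) or 3 (0.0524). With the block on the knockout groups only, SLC3A2 (0.00183, from 0.0821) and SLC38A2 (0.00431, from 0.0862) were higher as well. SLC7A5, at -0.27 (0.507), was called lower only without HIF2α-ko replicate 2 (-0.71, 0.0283).

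The interaction term asks whether the double knockout differs from the sum of the single ones on the log2 scale. It was called for 3 of 9 tested members, where 20.6% of all tested genes were called (13.2% higher and 7.35% lower). SLC7A1 was above the sum by 0.73 ± 0.18 (SE, adjusted p = 0.0160, limma), the 1 called member with a positive term. SLC1A5 was below it by -0.84 (adjusted p = 0.0112), with rises of 1.30 and 0.73 in the single knockouts and of 1.19 in the double knockout. SLC1A3 was below it by -0.89 (adjusted p = 0.0390), a call that held in 3 of the 12 fits without 1 library and was lost with no filter (0.0608). With replicates 2 and 3 only, 5 members had an interaction (43.0% of all tested genes).

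The neighbouring genes of amino acid supply were taken as lists by name, and their counts stand beside the shares of all tested genes given above. Of each list the 3 genes of smallest p in HIF1α/2α-ko against vector were named, so their p-values there are small by selection. Of the stress response list, ATF4 and the genes around it, 11 of 20 tested genes rose in HIF1α/2α-ko and 1, VLDLR, fell, with a median log2 difference of 0.72, where 31.8% of all tested genes were higher and 14.8% lower and their median was 0.21. In HIF1α-ko, where 17.3% were higher and 8.77% lower, SESN2, DDIT3, ATF4, CHAC1 and EIF2AK4 rose, and VLDLR and PPP1R15A fell. CHAC1 had a TPM of 1.10, 0.529 and 0.265 in vector and 2.52, 3.61 and 3.04 in HIF1α-ko. Knockout libraries brought it into the tested range, so nothing is read from its calls. In HIF2α-ko, where 5.07% were higher and 5.89% lower, DDIT4 rose and EIF2AK1 fell. ATF4 itself had a TPM of 341, 479 and 479 in vector cells, 676, 795 and 675 after HIF1α knockout, 399.8, 529 and 467 after HIF2α knockout, and 849, 825 and 892 in the double knockout, so both groups without HIF1α lay above vector. ATF4 rose by a log2 of 1.00 (adjusted p = 0.000195, limma) in the double knockout and of 0.74 (0.00462) after HIF1α knockout. SESN2, a leucine sensor upstream of mTORC1, rose by 2.78 (3.86e-06), and DDIT3, the stress transcription factor CHOP, rose by 2.08 (8.41e-05) in HIF1α/2α-ko.

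Of 20 tested genes of amino acid synthesis and use, 12 rose and 1, ASS1, fell in HIF1α/2α-ko, with a median of 0.67, beside 31.8% higher, 14.8% lower and a median of 0.21 over all tested genes, and 8 rose and 2 fell under median ratio scaling. In HIF1α-ko 7 rose and 2, GPT2 and ASS1, fell, beside 17.3% of all tested genes higher and 8.77% lower. In HIF2α-ko 0 fell, and ALDH18A1, BCAT2 and ASS1 rose, beside 5.07% of all tested genes higher and 5.89% lower. PSAT1, which forms phosphoserine on the way to serine, had a TPM of 9.73, 4.49 and 5.43 in vector and 46.8, 82.1 and 88.6 in HIF1α/2α-ko, a log2 rise of 3.29 (adjusted p = 1.92e-05, limma). GOT2, the mitochondrial aspartate aminotransferase, rose by 1.43 (1.54e-05) and PYCR1, a proline-forming reductase, by 1.46 (2.17e-05). ATF4, PSAT1 and PYCR1 passed the test also in HIF1α-ko, whereas GOT2 at 0.20 (adjusted p = 0.313) did not.

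Of 12 tested targets of NRF2, the antioxidant factor that also drives SLC7A11, 11 rose and 1, OSGIN1, fell in HIF1α/2α-ko, with a median of 1.71. Over all tested genes 31.8% were higher and 14.8% lower there, with a median of 0.21. In each single knockout 1 of the NRF2 targets rose, SRXN1 in HIF1α-ko (0 rose under median ratio scaling) and NQO1 in HIF2α-ko, and OSGIN1 fell in HIF1α-ko too. Over all tested genes 17.3% were higher and 8.77% lower in HIF1α-ko, and 5.07% higher and 5.89% lower in HIF2α-ko. Nothing is read from these single calls. SRXN1, a sulfiredoxin, rose by a log2 of 3.44 (adjusted p = 1.61e-05, limma), GSR, glutathione reductase, by 1.80 (7.36e-06) and PGD, an enzyme of the pentose phosphate pathway, by 1.51 (1.08e-05) in HIF1α/2α-ko. Of 15 direct HIF targets, 10 fell and 0 rose in HIF1α/2α-ko, with a median of -1.02, 7 fell in HIF1α-ko and 2, PGK1 and ANKRD37, rose in HIF2α-ko. The same shares of all tested genes stand beside these counts. Among the direct HIF targets, CA9, a carbonic anhydrase, fell by 2.45 (1.52e-06), BNIP3, a mitophagy receptor, fell by 2.83 (1.56e-06) and NDRG1 fell by 1.52 (1.28e-05) in HIF1α/2α-ko.

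Of 40 other amino acid transporters 14 reached the tested range, and 3 rose and 2 fell in HIF1α/2α-ko, with a median of 0.30 that became 0.07 under median ratio scaling, where 1 rose and 2 fell. The 5 called of 14 stand beside 46.7% of all tested genes. The genes called higher were SLC6A17 at a log2 of 0.92 (adjusted p = 0.00142, limma), SLC7A6 at 0.63 (0.0187) and SLC7A7. The last was below 1 TPM in every vector library and entered the test through knockout libraries alone, so nothing is read from its calls here and in HIF1α-ko. In HIF1α-ko SLC38A5 fell, and in HIF2α-ko SLC38A4 and SLC7A6 fell and 0 rose. Of all tested genes 8.77% were lower in HIF1α-ko and 5.89% in HIF2α-ko. SLC38A5, a glutamine carrier of the same family as SLC38A1 and SLC38A2, had a TPM of 4.81, 4.80 and 5.33 in vector cells, 2.58, 2.16 and 2.38 after HIF1α knockout, 5.08, 5.22 and 5.98 after HIF2α knockout, and 0.288, 0.348 and 0.627 in the double knockout. The double knockout was lowest and HIF1α-ko lay between it and vector. SLC38A5 fell by 2.08 (1.52e-06) in HIF1α/2α-ko. SLC38A4, another member of that family, fell by 2.20 (0.000238) in HIF1α/2α-ko and fell by 1.36 (0.0239) in HIF2α-ko. Beyond the 3 genes of smallest p of each list, SLC7A6, SLC7A7, VLDLR, PPP1R15A, CHAC1, EIF2AK4, EIF2AK1, DDIT4, GPT2, ASS1, ALDH18A1, BCAT2, OSGIN1, NQO1, PGK1 and ANKRD37 were also named after their values were seen.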

How the data were processed

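The authors deposited TPM values, 1 column per library and 12 libraries in all, with no pooled columns and 0 columns left unused. TPM is reads divided by gene length and scaled to a fixed total per library, here 999955 to 999982. It keeps no depth, so no interval for counting error could be given. The submitters' processing notes name FastQC 0.11.2, Trimmomatic 0.36, HISAT2 2.0, bedtools 2.26.0 and GRCh38. The counting tool and annotation are not given in the sources used here. The length of hypoxia is the one in the sample record. Of 20263 gene identifiers 20148 were matched to symbols, 76 more through GENCODE 29 and 39 to none.

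Values were transformed to log2(TPM + 1), and the 11731 genes for which 3 or more libraries had a TPM of 1 or higher entered a limma 3.58.1 model (R 4.3.3) of the 4 groups with a mean-variance trend. Tests were two-sided and adjusted p-values (Benjamini-Hochberg) had a threshold of 0.05. The fit was tested on simulated data. The members and lists were chosen with earlier results of these data known. All members were named, and of each list the 3 genes of smallest p in the double knockout, with others stated as such. Alternatives were a pseudocount of 0.1, no filter, a mean TPM of at least 5, quantile normalization, median ratio scaling, fitting just the groups compared, no trend, a minimum log2 fold change of 1 in size, the replicate number as a blocking term, each library left out and, added later, replicates 2 and 3 only.

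Within groups, libraries correlated at r = 0.966 or higher. As a check of pairing, deviations from the group means of libraries with the same replicate number were correlated across genes: r was 0.196 to 0.508 between knockout groups and -0.0265 to 0.163 between vector and a knockout group. A block on the knockout groups only was fitted on the strength of these values, as the sources used here do not explain the numbers. Between knockout groups r was 0.463 to 0.508 for replicate 1 and 0.196 to 0.250 for the others. No correlation was computed between libraries with different numbers. Pairing therefore cannot be told apart from a replicate 1 that differed from the rest in each knockout group. The block over all 4 groups assumes a pairing of vector that these values do not show. Figures were made with Python 3.11.15 and matplotlib 3.10.9.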

Additional observations from a re-analysis of the deposited data

Results flagged for a closer look

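The difference that 1 knockout made depended on the other, by the test of the interaction term in limma, for SLC1A3 (-0.89 on the log2 scale), SLC1A5 (-0.84) and SLC7A1 (0.73). These terms are the log2 change in HIF1α/2α-ko minus the sum of those in HIF1α-ko and HIF2α-ko. SLC1A5 and SLC7A1 stayed past the threshold with any 1 library left out, and SLC1A3 did not.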

How the results depend on the processing

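Each member was refitted in every comparison under each alternative, and of 1404 such values 1290 kept their side of the threshold, 24 of these being uncalled values with a changed sign, 61 passed it newly, 53 no longer passed it, and 0 of the called ones reversed. In HIF1α/2α-ko against vector and against HIF2α-ko no setting moved the count of called members by over 1.5 times, and with 1 library left out these counts ran from 6 to 7 and from 5 to 7. The count in HIF1α-ko against vector was 3, became 5 with the replicate block and 8 with replicates 2 and 3 only, and ran from 2 to 4 with 1 library left out. Over all 11731 tested genes the calls also moved, from 3060 to 3968 with the block and to 6461 with replicates 2 and 3 only. In HIF2α-ko against vector the count was 1, became 2 with a mean TPM of at least 5, median ratio scaling, quantile normalization, no trend or replicates 2 and 3 only, 3 with the replicate block and 0 with a log2 fold change of at least 1, and ran from 1 to 3. Calls over all tested genes were 1286 in the main fit, 1169 of 8011 with that mean TPM, 1340 with median ratio scaling, 1486 with quantile normalization and 1219 with no trend. They were 4283 with replicates 2 and 3 only, 2068 with the replicate block and 263 with that minimum fold change. In HIF1α/2α-ko against HIF1α-ko the count was 2, became 1 with a pseudocount of 0.1, no filter, quantile normalization or a log2 fold change of at least 1, 4 with only the groups compared, 5 with the replicate block, 6 with the block on the knockout groups or with replicates 2 and 3 only, and ran from 1 to 4. Calls over all tested genes were 3322 in the main fit, 3238 with that pseudocount, 3431 of 16881 with no filter, 3648 with quantile normalization and 1000 with that minimum fold change. They were 3196 with only the groups compared, 4082 with the replicate block, 5684 with the block on the knockout groups and 5276 with replicates 2 and 3 only. In HIF1α-ko against HIF2α-ko the count was 6, became 2 with a log2 fold change of at least 1, and ran from 3 to 7. Calls over all tested genes went from 2949 to 764 with that minimum. The count of interactions was 3, became 0 with a log2 fold change of at least 1 and 5 with replicates 2 and 3 only, and ran from 2 to 4. Over all tested genes 2414 had one, 1376 with that minimum and 5040 with replicates 2 and 3 only. The cause was not tested. The block on the knockout groups changed only the calls given with those comparisons. The replicate block covers vector too, for which the check of pairing gave r of -0.0265 to 0.163. TPM gives no depth, so low members such as SLC7A11 have no detection limit here.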
